A study of Mus musculus with 16 samples.

Results

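The 43 genes described here encode transporters, endocytic receptors and metabolic enzymes of the kidney proximal tubule. They were selected by name, for their known roles, and the rule uses no measured value. All 43 were found by symbol among the 55471 genes of the methylation table and the 43984 genes of the histone table. The question asked of them was whether iPSC lines made from proximal tubule cells keep a trace of tubule origin at these genes that lines made from fibroblasts lack.

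Lines PTC11 and PTC12 were mouse induced pluripotent stem cell (iPSC) lines from proximal tubule cells (PTC), and lines TTF1 and TTF4 were iPSC lines from tail tip fibroblasts (TTF). All 4 lines came from littermates heterozygous for SLC34a1-GCE, tdTomato, rtTAROSA (neo-in) and OKMS-250, which were fed tamoxifen for 2 weeks from 6 weeks of age and whose kidneys and tail tips were taken at 8 to 10 weeks. Doxycycline switched on Oct4, Klf4, c-Myc and Sox2 in cultures of both origins and was then withdrawn. In PTC cultures the loxP-flanked cassette that blocks rtTA was removed by the Cre of SLC34a1-GCE, which the Slc34a1 promoter drives, and cells positive for tdTomato and GFP were sorted. Fibroblasts do not use that promoter and were given Cre on a plasmid instead, so that cell of origin and source of Cre cannot be told apart. The lines were kept on mouse embryonic fibroblast feeder cells. Each is 1 clone at low passage, the lines of an origin came from separate mice, and each line had 1 library for H3K4me3, H3K36me3 and CpG methylation.

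The proximal tubule takes back most of what the glomerulus filters. Sodium-coupled transporters of the brush border recover phosphate, glucose, amino acids and carboxylates, the megalin and cubilin receptors recover filtered protein, and basolateral transporters of the Slc22 family draw organic anions and cations out of the blood for secretion. The segment also makes glucose, creatine precursors and active vitamin D. Most of these genes are silent in pluripotent cells. H3K4me3 marks the start sites of active genes and also CpG-rich start sites that are poised. H3K36me3 accumulates over gene bodies through which RNA polymerase passes. The study takes high CpG methylation near a start site as a sign of an inactive gene.

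The number of CpGs differed widely among the start sites of these genes, which the 250 bases before the RefSeq start site show for the 3 genes of the protein uptake complex and for Slc34a1. Lrp2 (megalin) and Cubn (cubilin) are the receptors of that complex, Amn (amnionless) is the membrane partner that brings cubilin to the cell surface, and Slc34a1 is the phosphate transporter whose promoter marked the sorted cells. Sequences are from RefSeq on GRCm38.p6, written 5′ to 3′ on the strand of the gene, with each CpG in capitals. Lrp2 lies at chr2:69586030-69586279 on the minus strand and holds 18 CpGs in this stretch, Cubn at chr2:13491877-13492126 on the minus strand with 2, Amn at chr12:111270846-111271095 on the plus strand with 11, and Slc34a1 at chr13:55399398-55399647 on the plus strand with 1.
Lrp2: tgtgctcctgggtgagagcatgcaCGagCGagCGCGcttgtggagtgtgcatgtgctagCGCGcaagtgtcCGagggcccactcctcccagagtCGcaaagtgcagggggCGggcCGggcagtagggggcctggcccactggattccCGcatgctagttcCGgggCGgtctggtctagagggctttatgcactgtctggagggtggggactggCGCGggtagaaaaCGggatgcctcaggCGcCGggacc
Cubn: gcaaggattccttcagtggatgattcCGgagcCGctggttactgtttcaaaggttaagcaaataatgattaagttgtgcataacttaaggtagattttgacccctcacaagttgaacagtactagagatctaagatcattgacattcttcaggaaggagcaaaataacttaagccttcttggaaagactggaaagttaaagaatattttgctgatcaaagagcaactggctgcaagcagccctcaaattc
Amn: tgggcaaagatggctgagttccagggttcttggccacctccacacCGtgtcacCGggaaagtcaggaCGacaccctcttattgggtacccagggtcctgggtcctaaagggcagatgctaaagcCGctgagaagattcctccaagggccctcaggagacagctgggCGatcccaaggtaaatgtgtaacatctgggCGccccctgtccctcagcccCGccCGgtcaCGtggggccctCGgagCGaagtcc
Slc34a1: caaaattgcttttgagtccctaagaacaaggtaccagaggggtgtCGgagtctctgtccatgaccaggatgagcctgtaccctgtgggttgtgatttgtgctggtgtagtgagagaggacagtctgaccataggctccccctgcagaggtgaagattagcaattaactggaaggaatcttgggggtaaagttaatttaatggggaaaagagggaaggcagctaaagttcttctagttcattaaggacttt
The set of RefSeq promoters read here had an entry for 36 of the 43 genes. Their median was 4.5 CpGs in these 250 bases, against 6.0 over all 32851 promoters of the set. All 43 genes are annotated as protein coding.

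Within 1000 bp of the start site used for methylation, the number of CpGs ran from 9 at Slc6a18, a neutral amino acid transporter, to 137 at Slc4a4, the basolateral bicarbonate cotransporter, with a median of 33 over the 43 genes and 65 over 20801 protein coding genes. At least 50 CpGs were present at 14 of the 43 genes, against 59.4% of protein coding genes. The 14 include Lrp2 (122 CpGs), Cyp24a1 (102), which inactivates vitamin D, Amn (84), Slc27a2 (84), a fatty acid transporter, and Ass1 (76), the argininosuccinate synthase of arginine production. Slc34a1 has 17 and Cubn 25. For 8 of the 36 genes the methylation window holds no RefSeq start site of the set read here. These are Slc34a1 (1.461 kb away), Slc22a8, Slc6a19, Slc17a1, Ggt1, Anpep (12.849 kb), Mme (53.674 kb) and Havcr1. Their fractions describe sequence around another annotated start. The window for H3K4me3 was centred on the same start as the methylation window, or within 100 bp of it, in 36 of 43 genes and lay over 1 kb away in 4, namely Slc34a1, Slc7a7, Anpep and Mme.

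As a check of the label, 25 pluripotency genes had an H3K4me3 value at 22 and 23 genes in PTC11 and PTC12 and 23 and 13 in TTF1 and TTF4. Their median fraction of methylated CpGs was 0.0345 and 0.106 in PTC11 and PTC12 and 0.0862 and 0.608 in TTF1 and TTF4, so that TTF4 stood apart. Over all genes TTF4 also had the highest mean fraction, 0.649 against 0.372 to 0.482 in the other lines. H3K36me3 medians over all genes were 1.18 to 1.602 RPKM in TTF1 and PTC11 and 3.88 to 4.01 in PTC12 and TTF4. The tables hold no read counts or coverage, so the number of reads behind each value is unknown. In such bulk values, fewer cells with a mark cannot be told apart from less of the mark per cell. All p-values come from limma with 2 clones of each origin. The spread between clones at a gene is drawn there towards that of other genes. A standard error given for 1 gene can therefore be larger or smaller than the spread of its own lines implies.

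H3K4me3 was found near the start site of 26 of the 43 genes in at least 1 line, a share to set beside 49.5% of all listed genes. The number of genes with a value was 10 and 23 in PTC11 and PTC12 and 21 and 13 in TTF1 and TTF4. A gene has a value only where a peak was called and kept, between 2 kb before and 3 kb after its start site, so a missing value is not a measured 0. All 4 lines carried the mark at 7 genes, against 31.2% of all genes: Lrp2, Slc7a8 (a basolateral amino acid exchanger), Slc4a4, Slc27a2, Mme (neprilysin, a brush border peptidase), Cyp27b1 (the enzyme that activates vitamin D) and Ass1. No line carried it at 17 genes, against 50.5% of all genes. These 17 include Slc34a1, the glucose transporters Slc5a2 and Slc2a2, and the organic anion transporters Slc22a6 and Slc22a8. They also include the amino acid transporters Slc3a1, Slc6a18 and Slc6a19, and the phosphate and urate transporters Slc17a1 and Slc17a3. Cubn, the endocytic adaptor Dab2, the androgen-regulated Kap, the inositol oxygenase Miox and the injury marker Havcr1 are among them as well. The other 2 are the lactate transporter Slc5a12 and the sulfate transporter Slc13a1.

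H3K4me3 in the lines of 1 origin alone was rare over all genes. Counts over 43 genes can therefore say little about a trace of origin in its presence. No gene of the 43 had a value in both PTC lines and in neither TTF line, a pattern that 0.134% of all genes showed. The reverse pattern, a value in both TTF lines and in neither PTC line, was found at 1 gene, against 0.191% of all genes. It was Ggt1, the brush border enzyme that breaks down glutathione, with 2.44 RPKM in TTF1 and 2.58 in TTF4. The start of another gene, Lrrc75b, lies within the H3K4me3 window of Ggt1, and Lrrc75b had 3.39 and 4.42 RPKM in PTC11 and PTC12 and 3.55 and 3.71 in TTF1 and TTF4.

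**Figure D1:**
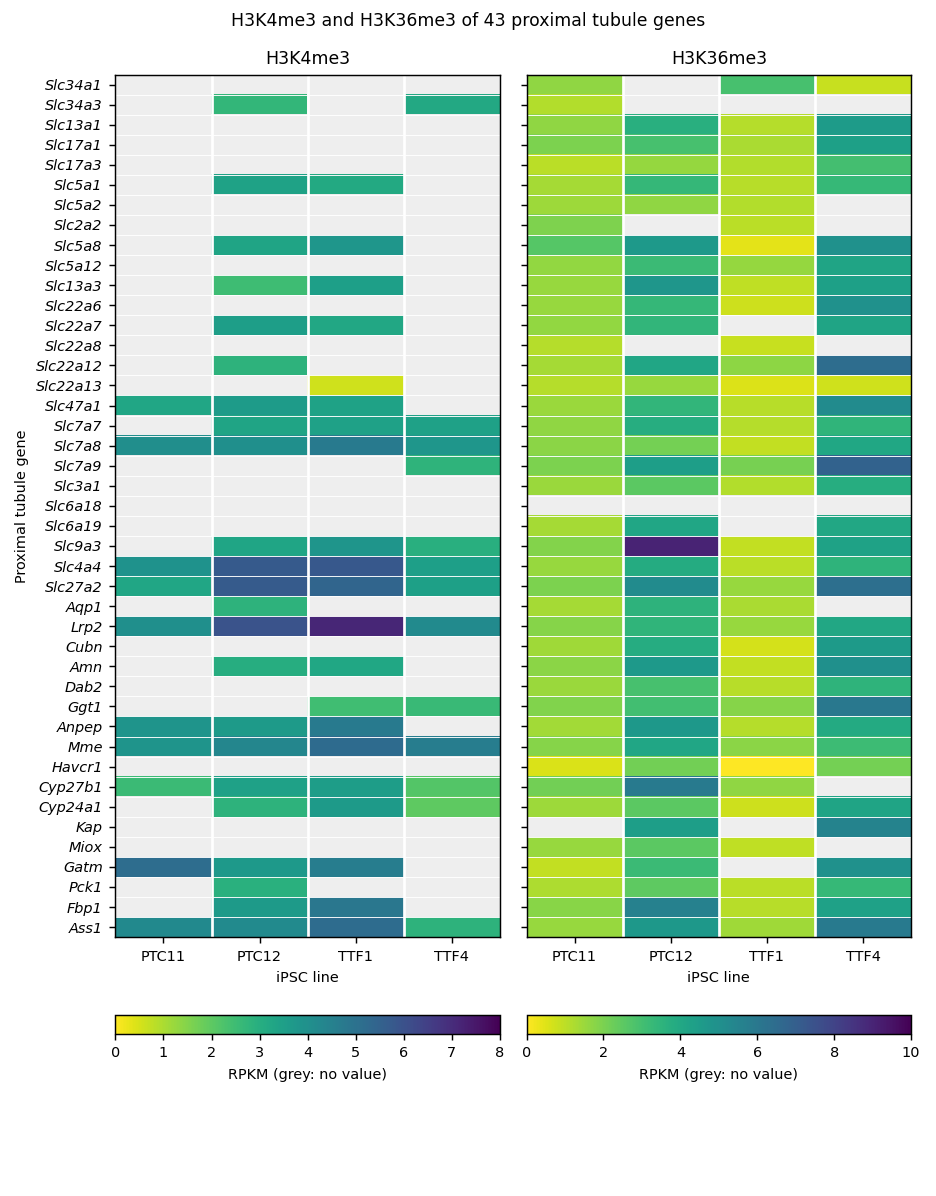
H3K4me3 near the start site (left) and H3K36me3 over the gene body (right) of the 43 genes in each iPSC line, as RPKM after input subtraction, with grey where no value was listed and a separate colour scale for each mark. H3K4me3 was listed for 10 and 23 genes in PTC11 and PTC12 and 21 and 13 in TTF1 and TTF4, and H3K36me3 for 35 to 41 genes per line.

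The other patterns of presence did not follow origin. A value in PTC12 and TTF1 alone was found at 6 genes, against 4.51% of all genes: the glucose cotransporter Slc5a1, the carboxylate transporters Slc5a8 and Slc13a3, the organic anion transporter Slc22a7, Amn, and the gluconeogenic enzyme Fbp1. Slc47a1 (an exporter of organic cations), Anpep (aminopeptidase N) and Gatm (the first enzyme of creatine synthesis) had values in PTC11, PTC12 and TTF1. Slc7a7 (a basolateral exchanger of cationic amino acids), Slc9a3 (the sodium-proton exchanger) and Cyp24a1 had values in PTC12, TTF1 and TTF4.

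The phosphate transporter Slc34a3 had 2.71 RPKM in PTC12 and 3.18 in TTF4 and no value in PTC11 and TTF1. PTC12 alone carried the mark at the urate exchanger Slc22a12 (2.84 RPKM), the water channel Aqp1 (2.84) and Pck1 (2.93), the rate-limiting enzyme of gluconeogenesis. The value of Slc22a12 is the same as that of its neighbour Slc25a45 and may belong to either gene. Slc7a9, a transporter of cystine, was marked in TTF4 alone (2.80 RPKM) and the organic anion transporter Slc22a13 in TTF1 alone (0.592 RPKM). Cyp24a1 shares its value in TTF4 (1.98 RPKM) with Pfdn4, whose start lies in the same window, and Slc27a2 shares its values in PTC12, TTF1 and TTF4 with AL831764.1.

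The presence of H3K4me3 went with the number of CpGs, which were counted around the start used for methylation. For Slc7a7, Anpep and Mme the start used for H3K4me3 lies 8.308, 12.849 and 54.335 kb away. Their CpG number and H3K4me3 therefore describe separate windows. Slc7a7 counts among the genes with at least 50 CpGs, and Anpep and Mme among those with fewer. All 14 genes with at least 50 CpGs had a value in at least 1 line, as did 98.6% of protein coding genes with that many. Among the 29 genes with fewer, 12 had one, against 33.9%. In all 4 lines the mark was listed for 5 of the 14 genes, against 86.0% of protein coding genes with at least 50 CpGs, and for 2 of the 29, against 9.71%. All of the 14 had a value in PTC12 and in TTF1, while 7 had one in PTC11 and 8 in TTF4, the 2 lines with fewer listed genes over the whole table (15114 and 15368, against 19990 in PTC12 and 19448 in TTF1).

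Where H3K4me3 could be compared, its level overlapped between the origins in 6 of 7 genes. Lrp2 had 4.01 and 5.97 RPKM in PTC11 and PTC12 and 7.15 and 4.16 in TTF1 and TTF4. The PTC and TTF lines overlapped, with PTC11 and TTF4 low and PTC12 and TTF1 high. Slc4a4 had 3.92, 5.75, 5.81 and 3.49 RPKM in the same order of lines, and Slc27a2 had 3.26, 5.72, 5.38 and 3.45. Both repeat the order seen at Lrp2, in which a PTC line and a TTF line lie together at each end.

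Cyp27b1 had 2.55 and 3.43 RPKM in PTC11 and PTC12 and 3.55 and 2.14 in TTF1 and TTF4, with the same overlap. Ass1 had 4.197, 4.16, 5.18 and 2.82 RPKM in that order, and Slc7a8 had 4.05, 4.02, 4.74 and 3.80. In both, the PTC lines lay between the TTF lines. PTC12 and TTF1 lay above PTC11 and TTF4 in 4 of these 7 genes, against 81.4% of all genes tested.

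Mme was the only one of the 7 in which both PTC lines, at 3.87 and 4.33 RPKM, lay below both TTF lines, at 5.20 and 4.60, a pattern that 5.04% of all genes tested showed. Its difference of PTC minus TTF on the log2(RPKM + 1) scale was -0.21 (standard error 0.43, adjusted p = 1.00 from limma). No other of the 7 had a lower unadjusted p. By limma with Benjamini-Hochberg adjustment over 13709 genes, 0 of the 7 passed an adjusted p of 0.05, against 0.481% of all genes tested, and 0 passed an unadjusted p of 0.05, against 0.977%. The median difference of the 7 genes on this scale was 0.01 and that of all genes -0.04. Without TTF1 the median of the 7 was 0.26, and that of all genes 0.21. Without TTF4 the median was -0.25 over 10 of the 43 genes and -0.29 over all genes. The sign of both medians thus rested on single lines.

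**Figure D2:**
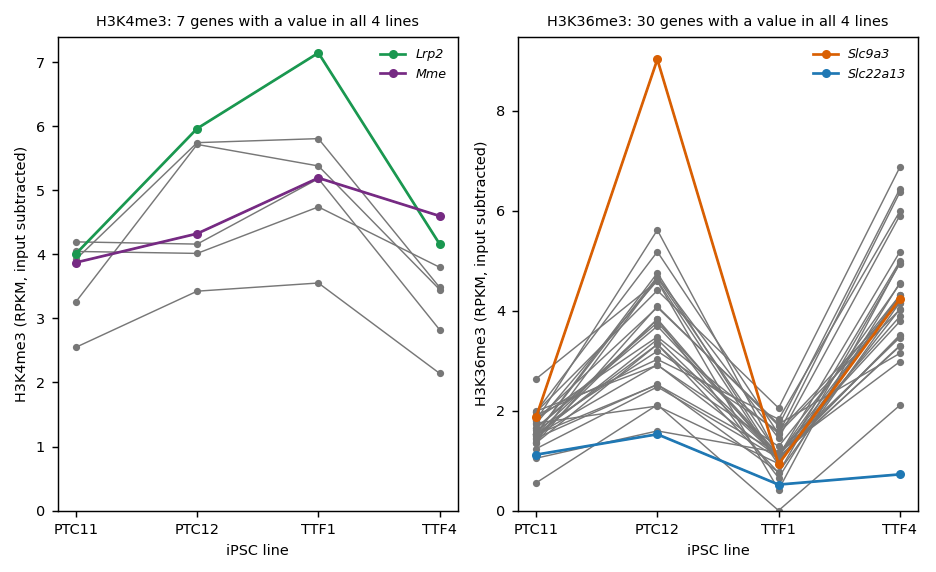
H3K4me3 (left) and H3K36me3 (right) of the genes with a value in all 4 lines, in RPKM after input subtraction, with each line joining the values of 1 gene and a few genes coloured. For H3K4me3 Lrp2 runs from 4.01 to 7.15 RPKM and peaks in TTF1, while for H3K36me3 nearly every gene is high in PTC12 and TTF4 and low in PTC11 and TTF1, with Slc9a3 reaching 9.02 RPKM in PTC12.

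H3K36me3 over the gene body was listed for 42 of the 43 genes in at least 1 line, beside 70.9% of all genes, and for 30 in all 4 lines, beside 38.7%. Slc6a18 alone had no value. The counts were 41 and 38 genes in PTC11 and PTC12 and 37 and 35 in TTF1 and TTF4, against 68.0%, 52.5%, 53.4% and 46.3% of all genes in the same order, so the mark was present at genes with and without H3K4me3. As for H3K4me3, no gene was marked in both PTC lines and in neither TTF line, against 1.78% of all genes, and none in both TTF lines and in neither PTC line, against 0.025%. The median over the genes with a value was 1.53 and 3.50 RPKM in PTC11 and PTC12 and 1.09 and 4.18 in TTF1 and TTF4. These medians lie close to those of all genes, and the height of the mark differed mainly by library: PTC12 and TTF4 lay above PTC11 and TTF1 in 29 of the 30 genes, against 93.6% of all genes tested.

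Slc34a1 had 1.64 RPKM of H3K36me3 in PTC11, 2.91 in TTF1 and 0.840 in TTF4, and no value in PTC12. Its highest value was thus in a fibroblast-derived line, and it is an exception to the order of the libraries. Slc9a3 had the widest range, from 0.928 RPKM in TTF1 through 1.87 in PTC11 and 4.23 in TTF4 to 9.02 in PTC12, and the origins overlapped. Lrp2, with H3K4me3 in all lines, had 1.83, 3.47, 1.55 and 4.02 RPKM in PTC11, PTC12, TTF1 and TTF4, and Cubn, without H3K4me3, had 1.44, 3.82, 0.652 and 4.55. Both were high in PTC12 and TTF4 and low in PTC11 and TTF1, and the difference between the genes was not tested. Havcr1 (Kim-1), which the injured tubule raises, was listed at 0 in TTF1 and had 0.553 RPKM in PTC11, 2.12 in PTC12 and 2.104 in TTF4.

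Of the 30 genes, 0 passed an adjusted p of 0.05 for H3K36me3 in limma, against 0.112% of 17039 genes, and 0 passed an unadjusted p of 0.05, against 0.681%. Slc22a13, a urate and nicotinate transporter of the Slc22 family, had 1.12 and 1.53 RPKM in PTC11 and PTC12 and 0.519 and 0.723 in TTF1 and TTF4. It was the only gene with both PTC lines above both TTF lines, a pattern found in 3.05% of all genes tested, and the difference of PTC minus TTF on the log2(RPKM + 1) scale was 0.52 (standard error 0.39, adjusted p = 1.00 from limma). The median difference on this scale was 0.04 over the 30 genes and 0.14 over all genes. It moved to -0.63 without TTF1, to 0.63 without TTF4, to 0.46 without PTC11 and to -0.34 without PTC12. The median of all genes moved with it, to -0.46, 0.72, 0.60 and -0.33 in the same order of lines left out.

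CpG methylation could be read for all 43 genes in all 4 lines. As deposited, the median fraction of methylated CpGs was 0.360 and 0.560 in PTC11 and PTC12 and 0.360 and 0.789 in TTF1 and TTF4. Over all genes with a value in all 4 lines the medians were close, at 0.380, 0.535, 0.370 and 0.769. Over 20801 protein coding genes, the kind to which all 43 belong, they were lower, at 0.156, 0.215, 0.157 and 0.395 in the same order. Fractions over 0.5 were found at 13 and 24 genes in PTC11 and PTC12 and 14 and 36 in TTF1 and TTF4, against 33.7%, 54.0%, 34.8% and 70.8% of all genes in the same order. TTF4 was the highest line at 36 of the 43 genes, against 75.4% of all genes, and PTC11 was the lowest at 23, TTF1 at 15 and PTC12 at 5, against 42.4%, 41.4% and 13.2% of all genes.

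Lrp2 was the least methylated gene, with fractions of 0.0135 and 0.0186 in PTC11 and PTC12 and 0.0554 and 0.0379 in TTF1 and TTF4. It was low in every line, TTF4 included, and its start site is the richest in CpGs after that of Slc4a4. Cyp24a1 followed, with 0.104, 0.0736, 0.0870 and 0.342 in the same order, and Ass1 with 0.0314, 0.146, 0.0845 and 0.363. At both, TTF4 lay above the other lines, and the PTC lines overlapped with TTF1.

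At the other end, Cubn had fractions of 0.701 and 0.751 in PTC11 and PTC12 and 0.634 and 0.885 in TTF1 and TTF4. Slc22a13 had 0.586, 0.750, 0.812 and 0.820 in the same order, and Slc22a8, which takes up organic anions from the blood, had 0.481, 0.733, 0.906 and 0.825. At Slc22a13 and Slc22a8 both PTC lines lay below both TTF lines as deposited. After the mean of each line was subtracted, which the study did to correct for differences between samples, the origins overlapped at both genes.

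Slc34a1 had fractions of 0.616 and 0.594 in PTC11 and PTC12 and 0.187 and 0.864 in TTF1 and TTF4. The PTC lines lay together and between the TTF lines, and the lowest methylation was in a fibroblast-derived line. The window lies upstream of the RefSeq start, and H3K4me3 had no value near either position in any line. The centred difference of PTC minus TTF was 0.166 (standard error 0.162, adjusted p = 1.00 from limma), but it was -0.0367 without TTF1 and 0.369 without TTF4.

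**Figure D3:**
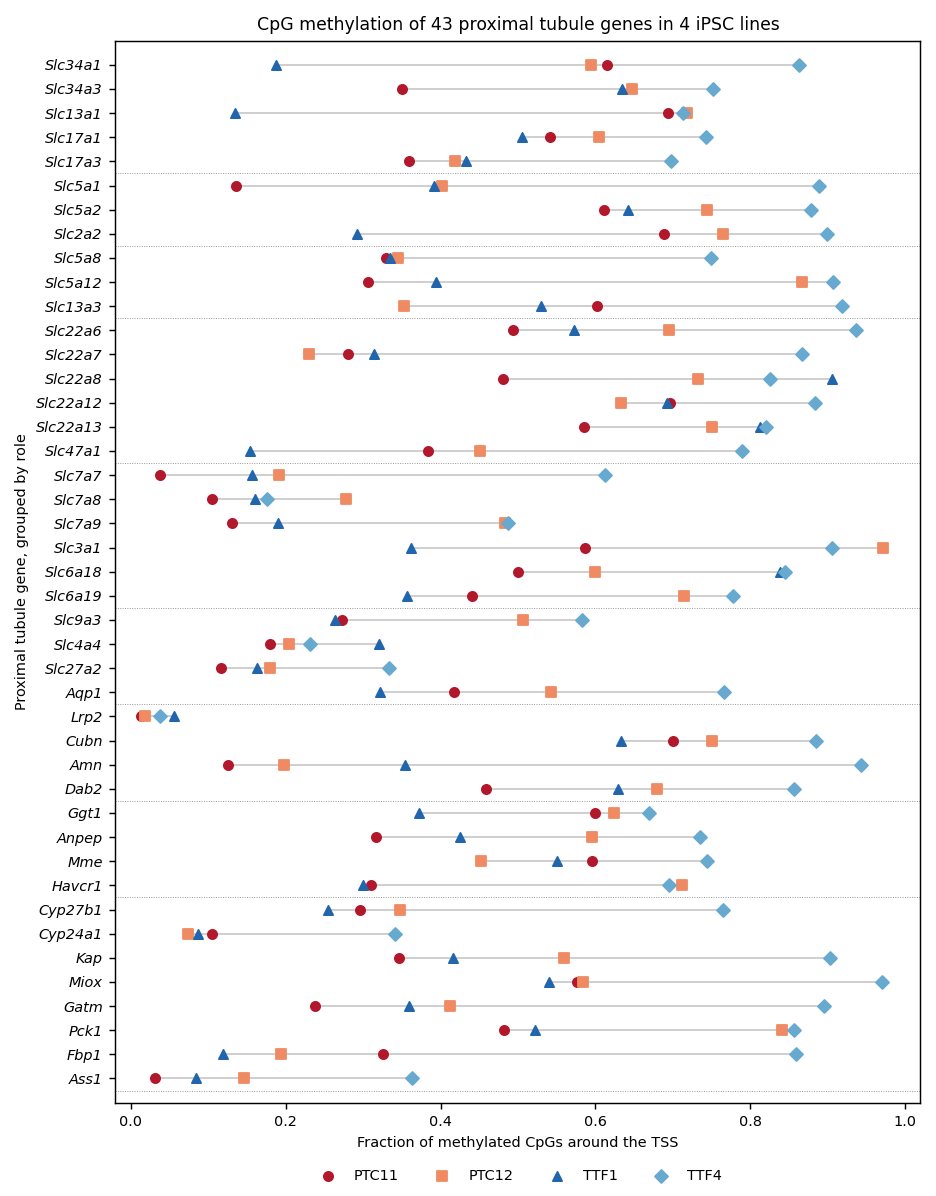
Fraction of methylated CpGs within 1000 bp of the start site of each of the 43 genes as deposited, with 1 point per iPSC line and dotted lines between groups of related role. TTF4 is the highest line at 36 of the 43 genes, and Lrp2 is low in all 4 lines, from 0.0135 to 0.0554.

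By role, the 5 phosphate and sulfate transporters had median fractions of 0.542 and 0.605 in PTC11 and PTC12 and 0.433 and 0.743 in TTF1 and TTF4. The 3 sugar transporters had 0.611, 0.744, 0.392 and 0.890 in the same order, and the 4 brush border enzymes and injury marker 0.456, 0.609, 0.399 and 0.715. In these groups both PTC lines lay above TTF1 and below TTF4. The 6 amino acid transporters, at 0.286, 0.541, 0.274 and 0.695, and the 8 genes of vitamin D, metabolism and androgen response, at 0.311, 0.380, 0.307 and 0.858, had the same order, with PTC11 close to TTF1. The 3 carboxylate transporters had 0.330, 0.353, 0.394 and 0.907, and the 4 genes of protein endocytosis 0.292, 0.439, 0.492 and 0.871. In these the medians of both PTC lines lay below those of both TTF lines. Gene by gene as deposited, both PTC lines lay below both TTF lines at 0 of the 3 carboxylate transporters. They did so at 2 of the 4 endocytosis genes. The 6 organic anion, cation and urate transporters, at 0.487, 0.664, 0.632 and 0.846, and the 4 acid-base, water and fatty acid transporters, at 0.226, 0.355, 0.292 and 0.458, had TTF1 between the PTC lines. TTF4 was the highest line in each of the 9 groups. Within the amino acid transporters the spread was wide, since Slc7a8, which has H3K4me3 in all lines, stayed between 0.104 and 0.277 while Slc3a1, which has none, reached 0.972 in PTC12. The widest range of any gene was at Amn, from 0.125 in PTC11 to 0.943 in TTF4.

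Methylation was lower at the genes with more CpGs. The 14 genes with at least 50 CpGs had median fractions of 0.1303 and 0.241 in PTC11 and PTC12 and 0.213 and 0.598 in TTF1 and TTF4, and the 29 with fewer had 0.482, 0.633, 0.425 and 0.846. Over protein coding genes the corresponding medians were 0.0754, 0.109, 0.0757 and 0.222 with at least 50 CpGs, and 0.432, 0.588, 0.430 and 0.802 with fewer. Spearman's rho between CpG number and mean fraction was -0.618 across the 43 genes and -0.828 across 20801 protein coding genes, as a description across genes measured in the same libraries, which are not independent replicates. By line, rho across the 43 genes was -0.558 and -0.681 in PTC11 and PTC12 and -0.508 and -0.271 in TTF1 and TTF4, the weakest being in the most methylated line. The 17 genes without H3K4me3 had between 9 and 41 CpGs and mean fractions from 0.477 to 0.743. The 7 with H3K4me3 in all lines had median fractions of 0.116, 0.204, 0.163 and 0.334, and Mme, at 0.585 on average, was the highest of them, with its methylation and H3K4me3 windows over 1 kb apart.

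**Figure D4:**
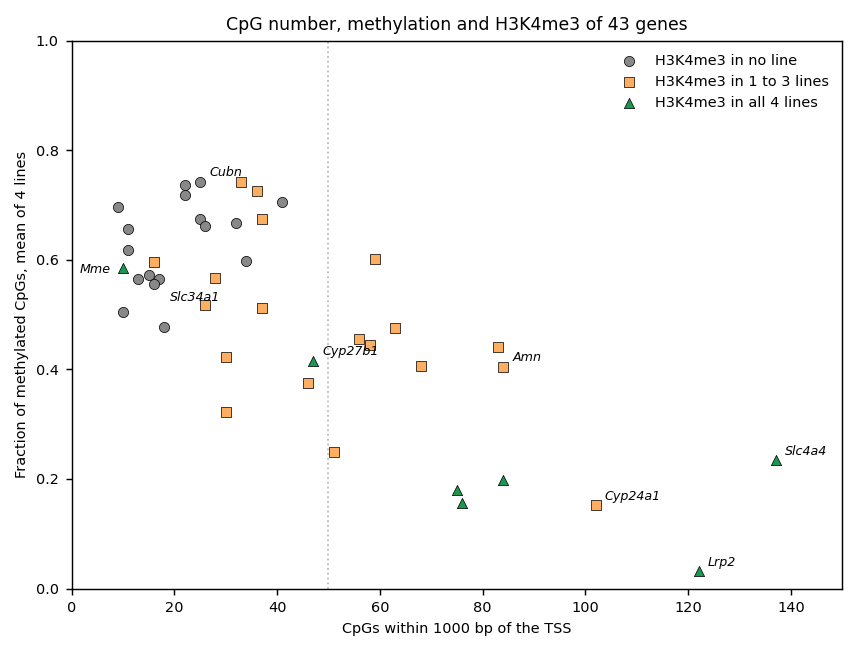
Mean fraction of methylated CpGs over the 4 lines against the number of CpGs within 1000 bp of the start site for the 43 genes, with the symbol giving the number of lines with H3K4me3 and the dotted line at 50 CpGs. Every gene to the right of the dotted line has H3K4me3 in at least 1 line, and the genes without H3K4me3 lie at 41 CpGs or fewer. For Slc7a7, Anpep and Mme the windows for CpGs and for H3K4me3 do not overlap.

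For the comparison by origin the centred fractions were used. No gene of the 43 passed an adjusted p of 0.05 in limma, against 0.00395% of 50657 genes tested, and 2 passed an unadjusted p of 0.05, against 4.72%. The median difference of PTC minus TTF was -0.0364 over the 43 genes and 0.0100 over all genes, with 24 genes below 0 and 19 above. The sign at single genes can depend on the centring. Without it the difference turned from 0.0565 to -0.0306 at Lrp2 and from 0.0534 to -0.0337 at Cubn. Among the genes followed over the alternatives, the sign turned at these 2 and stayed at 16. No exact permutation test of 2 lines against 2 can give a two-sided p under 0.33, so for a single gene the call rests on the spread that limma pools over genes.

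Both PTC lines lay below both TTF lines at 9 genes, against 15.0% of all genes, and above at 4, against 12.8%. The 9 were Amn, Slc5a1, Slc22a7, Gatm, Slc6a18, Slc7a7, Slc17a3, Dab2 and Ass1, and the 4 were Slc13a1, Slc2a2, Ggt1 and Cubn. As deposited, the counts were 8, against 20.5%, and 0, against 3.36%. The genes below were then Amn, Slc22a7, Slc6a18, Slc17a3, Slc22a8, Slc22a13, Lrp2 and Slc4a4, so that 4 of the 9 stayed.

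Amn had fractions of 0.125 and 0.198 in PTC11 and PTC12 and 0.354 and 0.943 in TTF1 and TTF4. Both PTC lines were low and both TTF lines higher, with TTF4 almost fully methylated. PTC lines had a mean of 0.162 ± 0.0517 (SD, n = 2), below the 0.648 ± 0.417 (SD, n = 2) of the TTF lines. The centred difference was -0.400 (standard error 0.149, adjusted p = 0.824 from limma), the most negative of the 43 genes. Over 11 alternatives it ran from -0.559 to -0.240 and the adjusted p from 0.00377 to 1.00. The lowest came without TTF1, when TTF4 was the only TTF line. Without TTF4 the difference was -0.240 and the adjusted p 0.621 in limma. H3K4me3 at Amn did not follow this order, being present in PTC12 (3.00 RPKM) and TTF1 (3.24 RPKM) alone.

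Slc13a1, the apical sulfate transporter, had the most positive difference. Its fractions were 0.694 and 0.718 in PTC11 and PTC12 and 0.134 and 0.713 in TTF1 and TTF4, so that TTF1 alone was low and the TTF4 value lay among the PTC values. The centred difference was 0.370 (standard error 0.160, adjusted p = 0.950 from limma). Over the same 11 alternatives it stayed between 0.216 and 0.524, with adjusted p from 0.190 to 1.00. Slc13a1 had no H3K4me3 value in any line.

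Among the other genes with PTC lines below, Slc5a1 (SGLT1) had fractions of 0.135 and 0.402 in PTC11 and PTC12 and 0.392 and 0.890 in TTF1 and TTF4. Slc22a7 had 0.280, 0.230, 0.315 and 0.867 in the same order, and Gatm had 0.238, 0.412, 0.360 and 0.896. In these 3 genes TTF1 lay at or near the PTC lines and TTF4 alone stood high. Slc6a18 differed from them, with 0.5 in PTC11 and 0.6 in PTC12 against 0.839 in TTF1 and 0.846 in TTF4. There the TTF lines lay together above the PTC lines, over a window with 9 CpGs, and the centred difference was -0.205 (standard error 0.148, adjusted p = 1.00 from limma).

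Slc7a7 had fractions of 0.0370 and 0.191 in PTC11 and PTC12 and 0.157 and 0.613 in TTF1 and TTF4. Slc17a3 had 0.360, 0.419, 0.433 and 0.698 in the same order, and Dab2 had 0.459, 0.679, 0.629 and 0.856. Of these, only Slc17a3 kept both PTC lines below both TTF lines as deposited. Slc2a2, the basolateral glucose exit transporter, had 0.688 and 0.766 in PTC11 and PTC12 and 0.292 and 0.899 in TTF1 and TTF4. Ggt1 had 0.6002, 0.624, 0.372 and 0.670 in the same order. At both, TTF1 was low and TTF4 was the highest line as deposited, and only the larger mean subtracted from TTF4 placed it below the PTC lines.

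**Figure D5:**
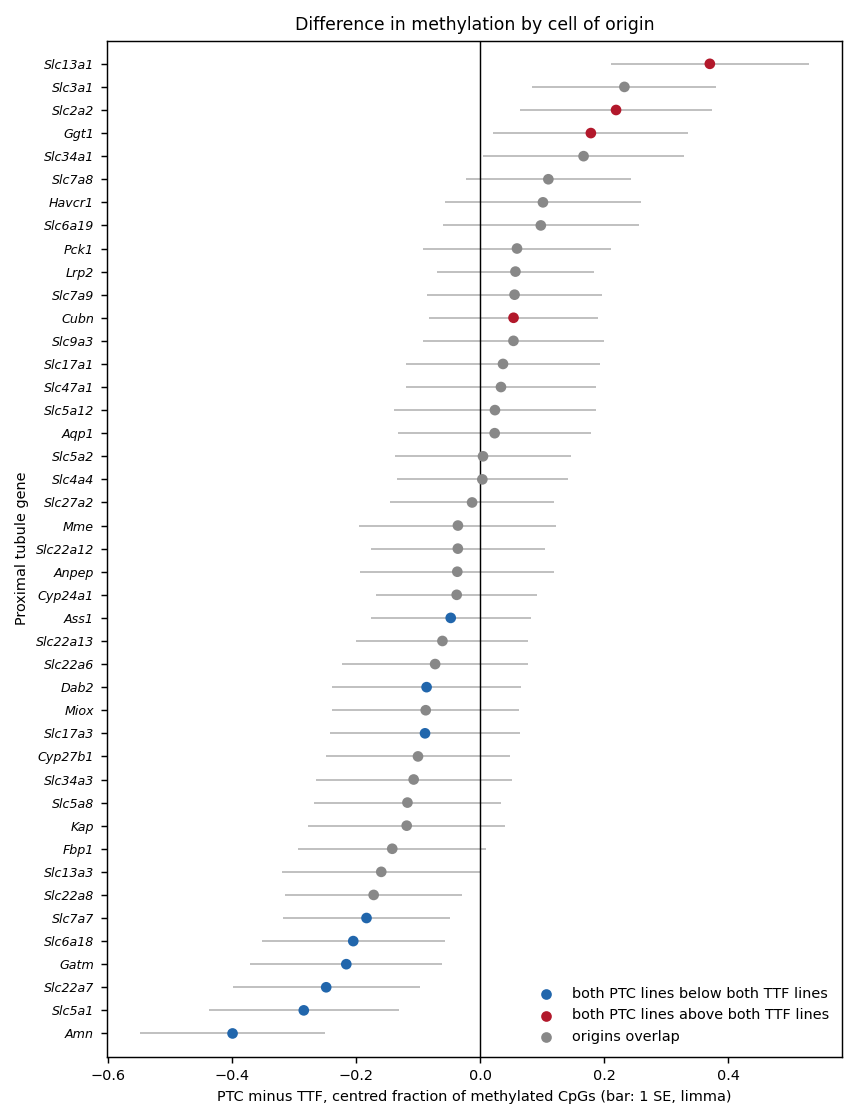
Difference of PTC minus TTF in the centred fraction of methylated CpGs for each of the 43 genes, ordered by size, with bars of 1 standard error from limma and colours for the genes in which the origins do not overlap. The differences run from -0.400 at Amn to 0.370 at Slc13a1, with 24 genes below 0 and 19 above.

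Other genes of the same tubule segment were read in the same way. Of 68 further proximal tubule genes, 27 had H3K4me3 in at least 1 line, against 49.5% of all genes, and 13 in all 4, against 31.2%. It was present in both PTC lines and in neither TTF line at 0 of the 68, against 0.134%. In limma 0 passed an adjusted p of 0.05 in any of the 3 assays, where 0.481%, 0.112% and 0.00395% of all genes tested did in H3K4me3, H3K36me3 and methylation. An unadjusted p under 0.05 was found for 0 of 13 tested in H3K4me3, 0 of 40 in H3K36me3 and 1 of 65 in methylation. The shares over all genes tested were 0.977%, 0.681% and 4.72%. Both PTC lines lay below both TTF lines in methylation at 13 of 65 and above at 13 after centring, where 15.0% and 12.8% of all genes did, and at 15 and 1 as deposited, where 20.5% and 3.36% did. The median centred difference was -0.0133. For 30 fibroblast genes, which would mark the other origin, the counts were 2 below and 8 above of 30 after centring, with a median difference of 0.0579, and 2 below and 3 above as deposited. By limma 0 of the 30 passed an adjusted p of 0.05, and 1 had an unadjusted p under 0.05 in methylation, against 4.72% of all genes tested. H3K4me3 was listed for 24 of the 30, against 49.5% of all genes, and in both TTF lines and neither PTC line for 0, against 0.191%.

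H3K27me3, the mark of repression by Polycomb, had no value at any of the 43 genes in any of the 4 libraries. Those libraries listed 69, 144, 52 and 11 genes in all, and both libraries of PTC origin carry the name of line PTC11, so that the assay could not be compared by line.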

How the data were processed

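ChIP-seq reads were aligned by the authors to mm10 with Bowtie2 2.1.0, and peaks were called with MACS2 2.0.10 for each library. Deposited RPKM values are RPKM per peak minus input RPKM, computed with bedtools 2.17.0 and averaged over the gene body for H3K36me3 and from 2 kb before to 3 kb after the start site for the other marks. Nanopore reads were base-called by the authors with Guppy, aligned with minimap2 2.17-r941 and called with Nanopolish, and the deposited fraction is that of methylated CpGs within 1000 bp of the start site. The tables hold no read counts or coverage per gene, so error comes from the spread between lines alone. Of the 16 deposited columns, 0 were left unused.

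Here log2(RPKM + 1) values, or fractions minus the mean of each line, were fitted over all genes with a value in all 4 lines by limma 3.58.1 with a variance trend (R 4.3.3), and p-values were adjusted by Benjamini-Hochberg over every gene tested, with a threshold of 0.05. The fits were tested on simulated data. Alternatives were another pseudocount, a minimum of 1 RPKM, quantile normalization, missing values set to 0, other centring, sex chromosomes or values of exactly 0 or 1 left out, no variance trend, each line left out and a replicate block. CpGs were counted on GRCm38.p6, the same assembly, with pysam 0.24.0, and the limit of 50 CpGs was set with the values known. Values in every line are given for Slc34a1, genes with H3K4me3 in all 4 lines, genes whose centred methylation did not overlap between origins, the 3 highest and 3 lowest in mean methylation and the widest range in each assay. Lines of different origin share no line number in the labels. Histone column names also carry a suffix of 1 or 2 and the study describes ChIP in duplicate. What the suffix marks is not given in the sources used here, it differs between the assays of some lines, and it was not used to pair lines. The genes and lists were chosen with earlier results of these data known.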

Additional observations from a re-analysis of the deposited data

How the results depend on the processing

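With 2 clones of each origin and no read counts per gene, single lines decided several values. The number of the 43 genes past the threshold for H3K4me3 and H3K36me3 was 0 under each alternative run, and for methylation it was 0 except that it ran from 0 to 1 over the fits that left out a line: without TTF1, Amn passed, together with 1003 of 50990 genes, and without TTF4 the count over all genes was 264. In such fits the lone line is assumed to vary like those of the other origin. The median difference in H3K4me3 on the log2(RPKM + 1) scale ran from -0.25 (without TTF4) to 0.26 (without TTF1) when a line was left out, against 0.01, and that in H3K36me3 from -0.63 to 0.63, against 0.04. Over all genes the medians moved alike, from -0.29 to 0.21 in H3K4me3 and from -0.46 to 0.72 in H3K36me3. Quantile normalization turned the H3K36me3 median to -0.08, and that of all genes to -0.01. Missing H3K4me3 set to 0 turned the H3K4me3 median to -0.05, against -0.03 over all genes. The median in methylation stayed below 0, from -0.123 as deposited to -0.0131 when centred by the median. Over all genes it was -0.0771 as deposited and 0.0333 when centred by the median. The number of genes with both PTC lines above both TTF lines in methylation was 4, against 12.8% of all genes. As deposited it was 0, against 3.36%. When centred by the median it was 7, for which the share over all genes is not given here, so this count cannot be read as particular to these genes. Over all genes the count of H3K4me3 calls fell from 66 to 0 without the variance trend, and that of H3K36me3 from 19 to 0. The causes were not tested.

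The labels give no shared line numbers. A block pairing PTC11 with TTF1 and PTC12 with TTF4 was run because the study describes these lines as alike in H3K36me3 at other genes. The pairing thus comes from measured values of this mark and not from the design. At Jag1 and Gata3 the study describes more of the mark in PTC11 and TTF1. The deposited values have the reverse order, with PTC12 and TTF4 above in 93.6% of all genes tested. The reason for this difference was not tested. Deviations from the origin mean correlated at -0.419 for H3K4me3, 0.47 for H3K36me3 and 0.115 for methylation, with 2 pairs. With the replicate block 0 of the 43 genes passed the threshold in each assay by limma, and the medians stayed at 0.01, 0.04 and -0.0364. An unadjusted p under 0.05 in limma was found for 0 of 7, 3 of 30 and 2 of 43 genes tested. Over all genes tested the shares were 0.751%, 9.27% and 5.91%. Over all genes the block gave 34, 167 and 24 calls, against 66, 19 and 2 without it.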
